A study of Rattus norvegicus with 6 samples.

Results

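Imprinted growth regulators were followed in whole neonatal rat ovaries cultured with or without NT3. The 10 genes H19, Meg3, Peg3, Mest, Dlk1, Grb10, Plagl1, Ndn, Cdkn1c and Snrpn make up the group, and a probe set, the group of short probes that reads 1 transcript on an Affymetrix array, was taken where the array annotation gave 1 of these as its only gene symbol. This gave 12 probe sets for 9 genes, of 31042 probe sets and 14217 gene symbols in all, and no probe set carried the name Peg3. Ovaries came from 4-day-old female Sprague-Dawley rats and were kept on floating filters for 48 h in medium with albumin, ascorbic acid and transferrin. The 3 control samples had no added factor and the 3 NT3 samples had 50 ng/ml of recombinant human NT3, a neurotrophin, and each sample was RNA of 2 to 3 ovaries homogenised together. The replicates are called biological with no word on whether animals or litters were separate, so a p-value covers no more than the spread among these arrays, and 3 arrays in each group limit the precision. In whole ovaries, fewer cells of a type and less RNA per cell cannot be told apart.

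An imprinted gene is expressed mainly from the copy inherited from 1 parent, because the copies carry different DNA methylation at a control region. Many such genes act on growth, and paternally expressed genes often promote it while maternally expressed genes often restrain it. H19, Meg3, Cdkn1c and, in most tissues, Grb10 are expressed from the maternal copy in the mouse, and Peg3, Mest, Dlk1, Plagl1, Ndn and Snrpn from the paternal copy. The methylation marks of maternal imprints are laid down in growing oocytes, after the follicle leaves the primordial stage that fills the ovary at this age. The arrays read total transcript and not its parental origin, so that imprinting itself was not measured.

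Several of these genes are neighbours in the rat genome. In the GRCr8 assembly Dlk1 and Meg3 have 1 annotated gene between them, H19 and the growth factor gene Igf2 also have 1, and 15 lie between H19 and Cdkn1c. H19 contains the precursor of miR-675, whose mature forms in RefSeq are given here because the H19 signal reads the transcript they come from. The seed, bases 2 to 8, is in capitals, and the arms have different seeds. The miRNAs themselves were not measured.
rno-miR-675-5p: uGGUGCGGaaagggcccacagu
rno-miR-675-3p: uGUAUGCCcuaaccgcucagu

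RefSeq promoters (GRCr8, 250 bases before to 50 after the annotated start) were at hand for 8 of the 10 genes, all but H19 and Cdkn1c. The letters TGCCGC, which the imprint-guarding zinc finger protein ZFP57 binds when methylated, were searched on both strands. They were in 5 of the 8 promoters, those of Meg3, Dlk1, Grb10, Plagl1 and Snrpn, and in 11.7% of all 33469 promoters. Among the 13064 promoters with at least 11 CG pairs, the lowest number in the 8, the share was 23.7%. A match is a description of letters and not a binding site. The promoters of Snrpn and Grb10 are shown because the groups did not overlap on a probe set of each, as in 5.83% of tested probe sets. They did overlap on the other Grb10 probe sets and on those shared by Snurf and Snrpn. The Snrpn probe set passed the signal filter only through its control signal, as given below. That of Meg3 is shown because its signal was lower in NT3 in every same-numbered pair, as in 11.3% of tested probe sets. No link between the motif and the signals was tested. Each reads 5′ to 3′ on the strand of the gene, with the motif in capitals, which appears here as its reverse complement GCGGCA. The windows are chr1:120338870-120339169 (minus strand) for Snrpn, chr14:90816338-90816637 (minus strand) for Grb10 and chr6:134273806-134274105 (plus strand) for Meg3. Snrpn holds the motif in 2 places, with 11 CG pairs in the window, against 44 for Grb10 and 13 for Meg3.
Snrpn: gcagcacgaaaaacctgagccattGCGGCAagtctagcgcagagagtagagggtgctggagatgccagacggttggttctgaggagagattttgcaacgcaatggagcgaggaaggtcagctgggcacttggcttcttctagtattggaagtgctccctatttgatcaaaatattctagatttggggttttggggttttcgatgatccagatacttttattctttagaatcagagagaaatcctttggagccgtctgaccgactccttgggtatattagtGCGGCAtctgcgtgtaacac
Grb10: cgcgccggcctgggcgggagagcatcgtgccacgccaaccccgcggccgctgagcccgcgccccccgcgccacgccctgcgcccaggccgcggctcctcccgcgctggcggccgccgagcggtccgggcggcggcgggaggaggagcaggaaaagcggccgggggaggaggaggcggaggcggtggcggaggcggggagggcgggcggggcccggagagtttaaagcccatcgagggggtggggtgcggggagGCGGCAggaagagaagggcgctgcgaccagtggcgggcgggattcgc
Meg3: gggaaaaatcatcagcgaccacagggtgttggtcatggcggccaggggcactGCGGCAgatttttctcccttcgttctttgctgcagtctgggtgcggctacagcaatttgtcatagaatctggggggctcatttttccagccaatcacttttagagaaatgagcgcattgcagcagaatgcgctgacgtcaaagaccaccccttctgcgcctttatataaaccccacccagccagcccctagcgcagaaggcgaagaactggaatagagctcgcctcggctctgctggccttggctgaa

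Signals are the authors' deposited MAS5 intensities on a linear scale, and a signal of 1 probe set says nothing about the level of another gene. The median signal per array was 69.0 to 75.0, and the ovarian marker genes Gdf9, Zp3, Amh and Foxl2 passed the signal filter. Control replicate 2 stood apart in RNA quality, where the beta-actin signal of the 3′ end was 6.83 times that of the 5′ end, against 2.42 to 2.91 times elsewhere. Without it, the ratio was still lower in control (2.42 and 2.60) than in NT3 (2.78 to 2.91). Control replicate 2 gave the highest signal of the 6 arrays in 4 of the 12 probe sets and the lowest in 3, against 31.4% and 27.5% of all tested probe sets. NT3 replicate 1 gave the lowest in 5, with a tie on Snrpn counted, and the highest in 3, against 11.5% and 12.8%. Values without control replicate 2 are plotted for the 11 tested probe sets of the group and given beside many of the values in the text. The part of either array in the results was not tested.

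No imprinted growth regulator passed limma's test in the comparison of NT3 with control. Of the 12 probe sets, 11 passed the filter on low signals (a mean log2 signal of at least 5.37, or a signal of 41.3), and 0 had an adjusted p under 0.05, as in 0% of the 18625 tested. An unadjusted p under 0.05 was reached by 1, Snrpn, where 1.29% of all tested probe sets reached it and 0.741% did so with a lower signal in NT3. With 1 probe set per gene, 4 of the 9 measured genes had a higher value in NT3 and 5 a lower one, where 49.8% of all tested probe sets were higher, with a median log2 change of -0.015 (0.025 without control replicate 2), and the median of all tested probe sets was -0.00054. The maternally expressed genes had 2 higher and 2 lower, and the paternally expressed ones 2 higher and 3 lower. The groups did not overlap for 2 genes, Grb10 above and Snrpn below, where 5.83% of all tested probe sets did not overlap. Snrpn passed the filter only through its control signal, as given below. The smallest adjusted p of these probe sets in any alternative fit was 0.354.

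**Figure D1:**
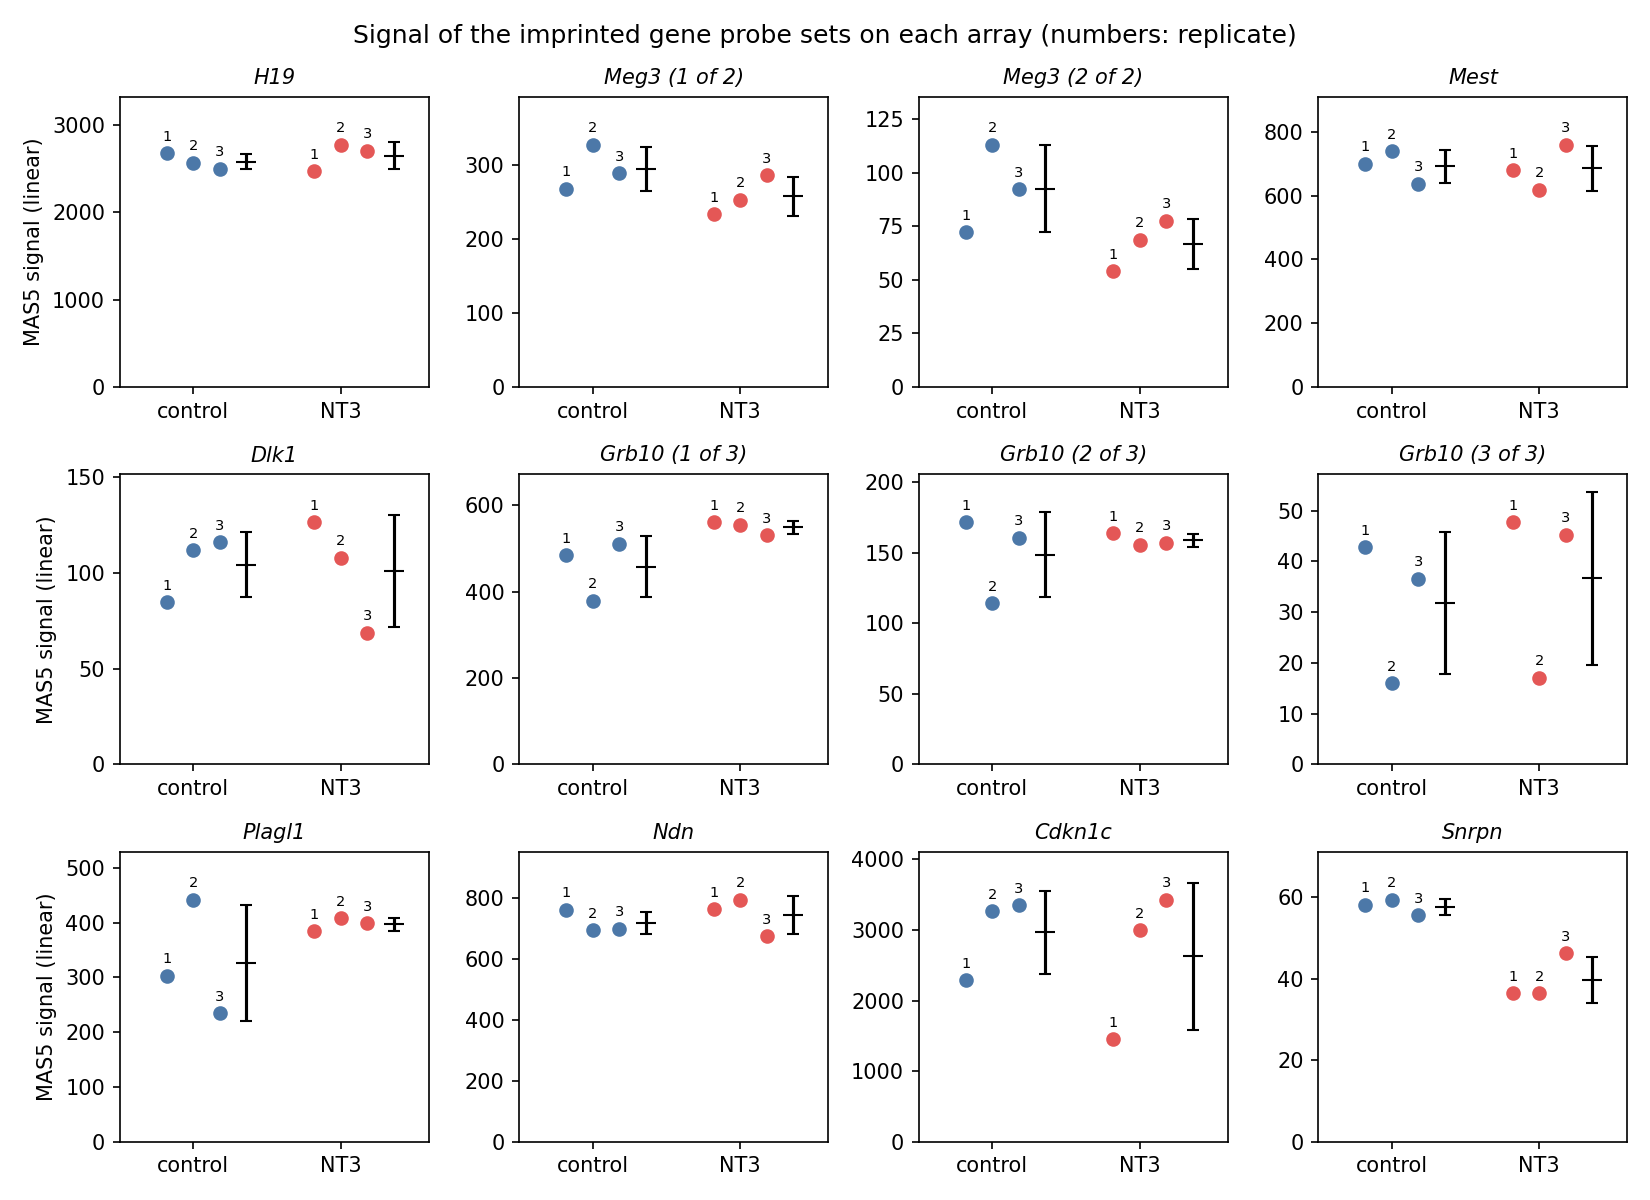
MAS5 signal (linear axis from 0) of each of the 12 probe sets on the 3 control and 3 NT3 arrays, numbered by replicate, with the mean and SD beside them. Snrpn and the first Grb10 panel are the ones whose groups do not overlap, as in 5.83% of tested probe sets. Cdkn1c is lowest on the replicate 1 arrays of both groups, at 2288.3 and 1449.7.

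H19, a long noncoding RNA and the precursor of miR-675, had the steadiest signal. In order of replicate number, here and below, it was 2682.1, 2567.7 and 2503.0 in control and 2473.7, 2775.0 and 2707.4 in NT3. The groups overlapped, and the highest array was 1.12 times the lowest, a smaller ratio than in 97.8% of tested probe sets. The mean was 2584 ± 90.7 in control and 2652 ± 158 in NT3 (SD, n = 3). The log2 change, NT3 minus control, was 0.036 ± 0.092 (SE), and its 95% interval ran from 0.888-fold to 1.18-fold, with an adjusted limma p of 1.00. Igf2, the fetal growth factor gene that shares its enhancers with H19 and is expressed from the other parental copy, had 1079.2, 846.0 and 866.6 in control and 981.0, 881.2 and 1040.1 in NT3. Its log2 change was 0.061 ± 0.13, or -0.0028 without control replicate 2, and the other 3 probe sets of Igf2 lay far below the filter, at signals up to 11.9.

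Meg3, a maternally expressed noncoding RNA that restrains proliferation, had lower values in NT3 on both of its probe sets. On the brighter one the signal was 268.6, 327.8 and 289.6 in control and 234.2, 253.6 and 287.0 in NT3. On the dimmer one it was 72.2, 113.0 and 92.4 in control and 54, 68.6 and 77.5 in NT3. The groups overlapped on both, through control replicate 1 and NT3 replicate 3. Each NT3 array was below the control array of its own number on both probe sets, which held for 11.3% of tested probe sets. The log2 change was -0.19 ± 0.14 and -0.46 ± 0.24, with unadjusted limma p of 0.195 and 0.0802 and an adjusted p of 1.00 for both. Without control replicate 2, the highest array on both, the values were -0.12 and -0.31, and without NT3 replicate 1 they were -0.13 and -0.32. Both stayed below 0 under every alternative tried.

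Dlk1 lies beside Meg3, is expressed from the paternal copy and encodes a membrane protein with EGF-like repeats that holds precursor cells undifferentiated. Its signal was 84.7, 111.7 and 115.9 in control and 126.3, 107.9 and 68.6 in NT3. NT3 held both the highest and the lowest array, and the differences in the same-numbered pairs were 0.58, -0.050 and -0.76 on the log2 scale. The log2 change was -0.077 ± 0.25, with a 95% interval from 0.636-fold to 1.41-fold. With control replicate 2 or 3 left out it was -0.019 or 0.0076, and it was 0.18 with NT3 replicate 3 left out, so the sign rested on single arrays.

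Cdkn1c encodes p57, which binds and inhibits cyclin-dependent kinases and so holds cells out of division. The signal was 2288.3, 3261.3 and 3351.7 in control and 1449.7, 2996.7 and 3424.4 in NT3. The arrays numbered 1 were the lowest of both groups, and the highest array was 2.36 times the lowest, a ratio that 7.01% of tested probe sets exceeded. The log2 change was -0.25 ± 0.30, with an unadjusted limma p of 0.419 and a 95% interval from 0.529-fold to 1.34-fold. With the replicate number as a block, which compares arrays within a number, the SE was 0.13 and the unadjusted p 0.0957, and the call did not change. The 3 pairs differed by -0.66, -0.12 and 0.031, so that replicate 1 carried most of the difference. Without NT3 replicate 1 the log2 change was 0.13. The related inhibitor gene Cdkn1b, which is not imprinted, had -0.17 ± 0.16, and Cdkn1a -0.16 ± 0.19.

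Grb10 encodes an adaptor that binds the insulin and IGF1 receptors and dampens their signal. On its brightest probe set the signal was 484.2, 378.6 and 511.0 in control and 560.2, 554.9 and 530.4 in NT3. All 3 NT3 arrays were above all 3 controls, as in 2.62% of tested probe sets, and control replicate 2 was the lowest by far. The mean was 458 ± 70.0 in control and 549 ± 15.9 in NT3 (SD, n = 3). The log2 change was 0.27 ± 0.13, with an unadjusted limma p of 0.0727 and an adjusted p of 1.00. Without control replicate 2 it was 0.14, and the groups still did not overlap, as in 8.81% of probe sets in that direction with that array left out. Each NT3 array was above the control of its number, as in 9.78%.

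The other probe sets of Grb10 did not repeat this separation. The second had 171.6, 114.3 and 160.6 in control and 164.0, 155.6 and 157.2 in NT3, a log2 change of 0.12 ± 0.18 that was -0.063 without control replicate 2. The third lay below the filter, with 42.8, 16 and 36.6 in control and 47.7, 17.1 and 45.3 in NT3, with both arrays numbered 2 the lowest. Of the cell type marker lists, only that of ovarian stroma, a cell class outside the follicle, had a summed signal that did not overlap between the groups. Of single tested probe sets 5.83% did not overlap, and no such share was computed for sums. That sum, which the brightest stromal markers dominate, was 31201 to 31977 in control and 33141 to 35781 in NT3. With equal weight for each marker the groups overlapped, at a median log2 deviation from the marker's own mean of 0.0062, -0.21 and -0.041 in control and 0.20, 0.066 and 0.00089 in NT3. All 10 of the 10 stromal markers had a higher value in NT3, but 8 of 10 without control replicate 2, when Dcn had -0.0042 and Mfap4 -0.082. None was at 0, and 0 passed limma's test in either fit. Of the tested macrophage and leukocyte markers, 9 were higher and 2 lower in both fits, and of the endothelial markers 1 was higher and 10 lower. The oviduct and mesonephros epithelium markers had the highest median log2 change of the marker lists, 0.26. Of those tested, 6 were higher and 3 lower, or 8 and 1 without control replicate 2. The part of any of these cells in the Grb10 values was not tested. Of the receptors that Grb10 acts on, Igf1r had a log2 change of -0.056 ± 0.20 and Insr 0.046 ± 0.23, and without control replicate 2 they had 0.19 and 0.098. The other Igf1r probe set had -0.056 ± 0.15, or -0.012 without control replicate 2. That of Insr lay below the filter, with 34.1, 33.9 and 32.9 in control and 13.8, 23.9 and 24.4 in NT3. There all NT3 arrays were below all controls, as in 4.28% of all 31042 probe sets.

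Plagl1, also called Zac1, encodes a zinc finger transcription factor that slows the cell cycle and acts on other imprinted genes. Its signal was 303.1, 441.2 and 234.9 in control and 384.2, 407.7 and 398.3 in NT3. The NT3 arrays lay close together and above control replicates 1 and 3, while control replicate 2 was the highest of all. With control replicate 2 left out, all NT3 arrays were above the controls in 8.81% of tested probe sets. The mean was 326 ± 105 in control and 397 ± 11.8 in NT3 (SD, n = 3). The log2 change was 0.33 ± 0.21, with an unadjusted limma p of 0.145. Without control replicate 2 it was 0.57 ± 0.13, or 1.32 to 1.83 times control by its 95% interval, with an unadjusted limma p of 0.00178 and an adjusted p of 0.999, where 3.52% of probe sets had an unadjusted p under 0.05 in that fit. Without control replicate 3 it was 0.12. Every alternative tried kept the sign. Its relative Plag1 had 0.18 ± 0.12, or 0.11 without control replicate 2. Plagl2 had -0.47 ± 0.22 with all NT3 arrays below all controls, as in 3.21% of tested probe sets, and -0.26 without control replicate 2, its highest array. No adjusted p of these genes was under 0.05.

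**Figure D2:**
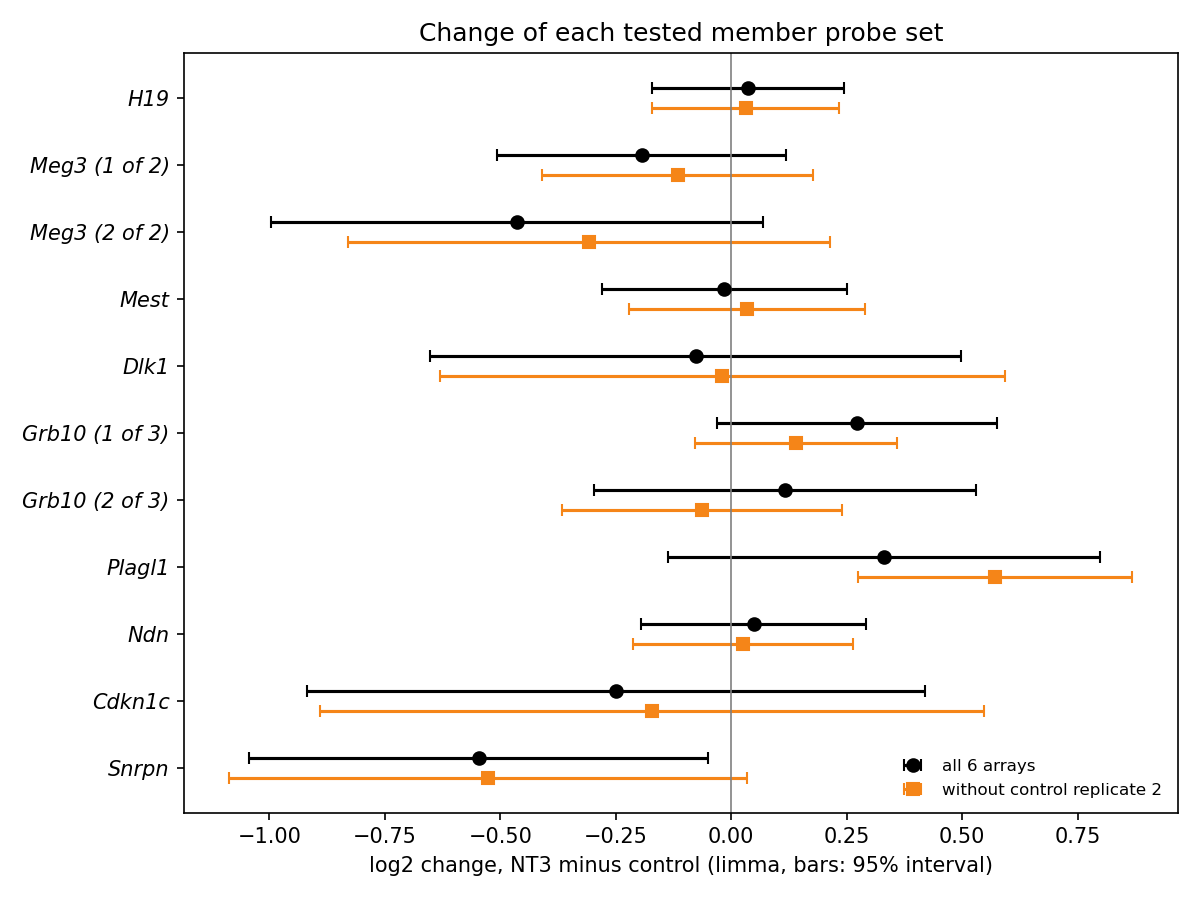
Log2 change, NT3 minus control, with its 95% interval by limma for each tested probe set, for all 6 arrays (black) and without control replicate 2 (orange). The Plagl1 value is 0.33 with all arrays and 0.57 without that array. All 95% intervals reach across 0 except that of Snrpn with all arrays and that of Plagl1 without control replicate 2. The intervals are not adjusted for the number of probe sets tested. Snrpn passed the signal filter only through its control signal, so its interval carries that selection.

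Snrpn encodes a splicing protein of the Sm family and shares its transcript with the short upstream reading frame Snurf. On the probe set named Snrpn alone the signal was 58.2, 59.4 and 55.6 in control and 36.5, 36.5 and 46.3 in NT3. The controls lay within a narrow range, and all 3 NT3 arrays were below them, as in 3.21% of tested probe sets and 4.28% of all 31042. The mean was 57.7 ± 1.94 in control and 39.8 ± 5.66 in NT3 (SD, n = 3). The NT3 mean was below the filter at 41.3, so the probe set was tested only through its control signal. Its p and its separation carry that selection. The log2 change was -0.55 ± 0.22, a fold of 0.685 with a 95% interval from 0.485 to 0.966, and it had the lowest p of these probe sets, at an unadjusted limma p of 0.0346 and an adjusted p of 1.00. Without control replicate 2 the groups also did not overlap, as in 9.65% in that direction, and the log2 change was -0.53 with an unadjusted p of 0.0629, and within replicate numbers, as a block, the unadjusted p was 0.0522.

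The 2 probe sets that the annotation assigns to Snurf and Snrpn together, left out by the rule, did not show lower values in NT3. The first, drawn from the same accession as the Snrpn probe set, had 531.0, 496.9 and 465.5 in control and 534.8, 475.2 and 578.0 in NT3, with a log2 change of 0.086 ± 0.12. The second had 510.9, 340.2 and 459.7 in control and 487.8, 451.9 and 541.9 in NT3, with 0.19 ± 0.16, or 0.023 without control replicate 2, its lowest array. The groups overlapped on both, and the probe sets of this locus therefore disagreed in sign. The close relative Snrpb, which is not imprinted, had -0.053 ± 0.090, or -0.027 without that array.

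Mest, which encodes a protein of the alpha/beta hydrolase fold and is expressed in growing mesenchyme, had 699.6, 738.4 and 637.1 in control and 680.0, 618.3 and 759.0 in NT3. The groups overlapped, and the log2 change was -0.015 ± 0.12, with a 95% interval from 0.824-fold to 1.19-fold. Its sign turned to 0.034 without control replicate 2 and to 0.057 without NT3 replicate 2. Ndn, a MAGE family protein that restrains proliferation and is best known from neurons, had 761.2, 694.7 and 698.8 in control and 763.7, 794.0 and 674.6 in NT3. These groups overlapped too, at a log2 change of 0.049 ± 0.11, or 0.025 without control replicate 2, and a 95% interval from 0.874-fold to 1.22-fold. For H19, Mest and Ndn the intervals thus left room for changes of at most 1.22-fold upward and to 0.824-fold downward, the tightest among these genes.

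**Figure D3:**
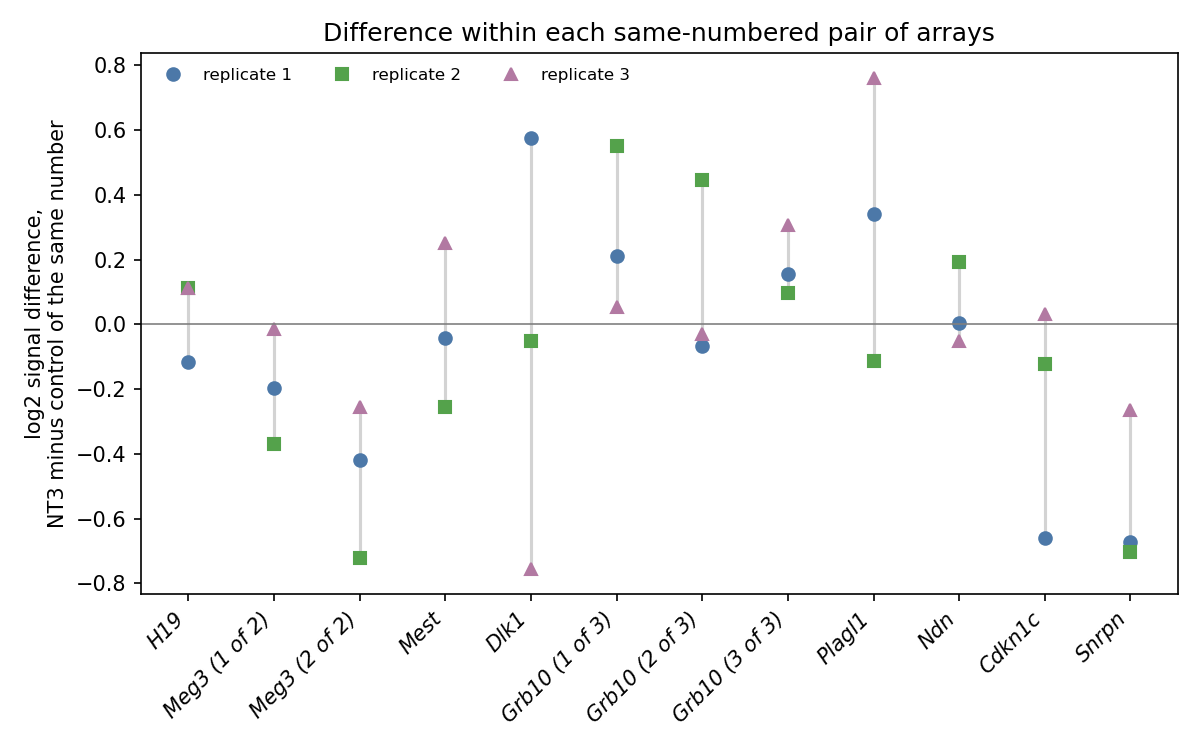
Log2 signal difference between the NT3 and control array of the same replicate number for the 12 probe sets. Both Meg3 probe sets and Snrpn are below 0 in all 3 pairs, as in 11.3% of tested probe sets. The brightest Grb10 probe set is above 0 in all 3, as in 9.78% of tested probe sets. So is the third, which lay below the filter and was not tested. Dlk1 runs from 0.58 in replicate 1 to -0.76 in replicate 3.

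The replicate numbers shared by the groups were taken to pair the arrays, from these same data and not from the labels. Using them as a block raised the number of probe sets at an unadjusted limma p under 0.05 from 240 to 401 (2.15%), with 0 adjusted calls in both fits. Among the 11 tested probe sets, the dimmer Meg3 probe set had 0.0479 with the block and Snrpn 0.0522, and no adjusted p was under 0.05.

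No other imprinted gene passed limma's test either. Of 48 on a list of genes imprinted in the mouse, 35 were in the annotation and 24 were tested, with 14 higher and 10 lower in NT3 and a median log2 change of 0.041, and 0 had an adjusted or unadjusted p under 0.05. The 9 tested paternally expressed genes had a median of 0.078 and the 15 maternally expressed ones -0.014, or 0.065 and -0.0042 without control replicate 2. Impact, a regulator of translation, had the lowest unadjusted p of the paternal genes, at 0.23 ± 0.16, and its other tested probe sets had 0.55 and 0.35. Control replicate 2 was the lowest array on all 3 of them, and without it they had 0.056, -0.42 and -0.25. Peg12 followed at 0.16 ± 0.19. On the maternal side the potassium channel gene Kcnq1 had -0.21 ± 0.16 and the proteoglycan gene Dcn, also a stromal marker, 0.17 ± 0.14, which was -0.0042 without control replicate 2 as above. Igf2r, whose product clears IGF2, had -0.037 ± 0.11, or 0.061 without control replicate 2, and Gnas, which encodes a stimulatory G protein subunit, 0.017 ± 0.096, while its other tested probe sets had -0.22 and 0.15. Without control replicate 2 the 3 Gnas probe sets had 0.079, -0.36 and -0.24.

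Genes that set or keep imprints also passed no test. Of 17 listed, 14 were tested, 6 higher and 8 lower, with a median log2 change of -0.033 and 0 called, or 7 higher and 7 lower with a median of -0.023 without control replicate 2. The methyltransferase gene Dnmt3a had -0.19 ± 0.19, with 0.082 on its other probe set, and -0.22 and -0.063 without control replicate 2. The demethylation enzyme gene Tet1 had 0.22 ± 0.27, and -0.060 without control replicate 2, its lowest array. Zfp57, whose product reads the motif searched above, had signals of 1128.4, 1049.7 and 673.9 in control and 903.1, 597.6 and 1006.2 in NT3, which overlapped. Of 10 insulin and IGF receptor and signalling genes, 9 were tested, 4 higher and 5 lower, with a median of -0.056 and 0 called, and without control replicate 2 it was 6 higher and 3 lower with a median of 0.098. The kinase gene Akt2 had -0.24 ± 0.12, with every NT3 array below every control array, as in 3.21% of tested probe sets, but -0.0073 and 0.21 on its other tested probe sets. Without control replicate 2 the 3 Akt2 probe sets had -0.18, -0.15 and -0.22. Rptor had -0.25 ± 0.18. Of 9 relatives of the imprinted genes 7 were tested, 1 higher and 6 lower, with a median of -0.16 and 0 called.

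**Figure D4:**
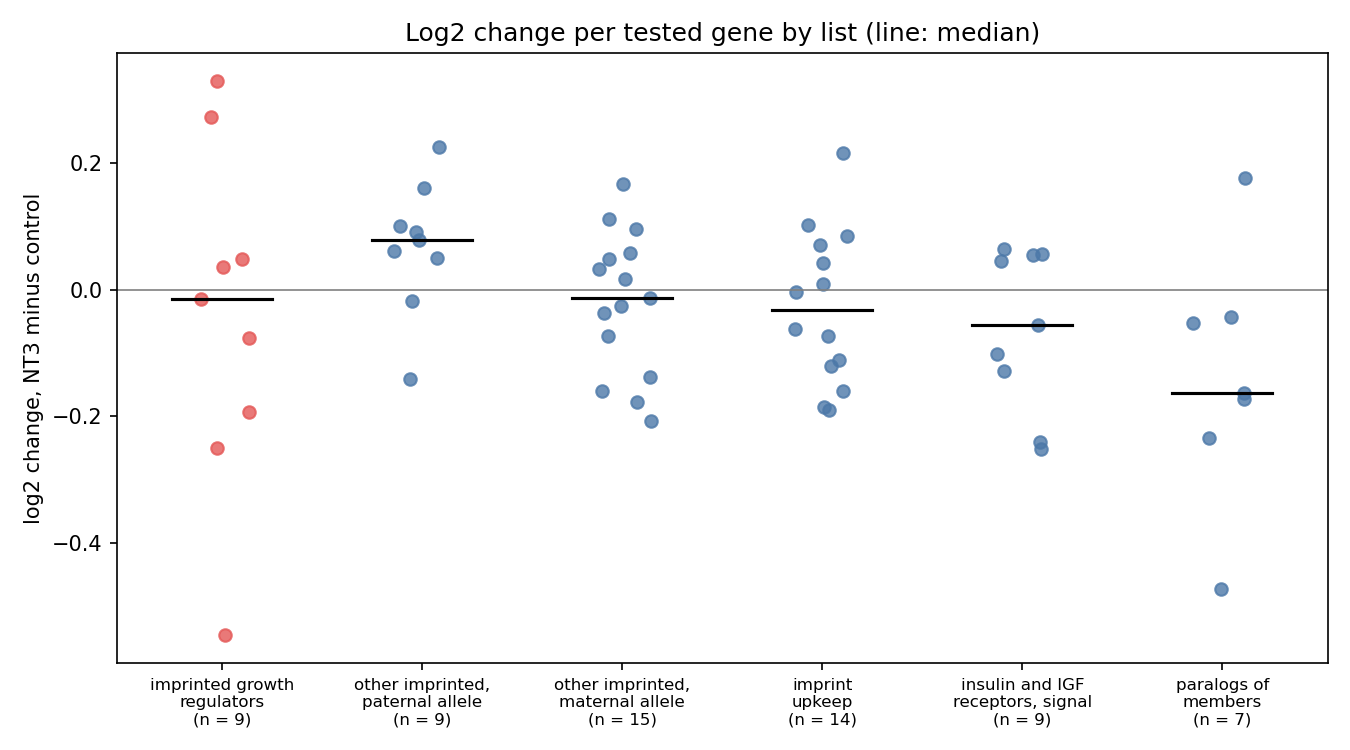
Log2 change, NT3 minus control, of every tested gene (1 probe set per gene) in the imprinted growth regulators and 5 other lists, with the median as a line. The imprinted growth regulators run from -0.55 to 0.33, and the other imprinted genes from -0.21 to 0.23.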

How the data were processed

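Transcripts were read on 6 single-colour Affymetrix arrays, 3 for control and 3 for NT3, with groups and replicate numbers taken from the sample titles. The authors deposited 1 linear signal intensity per probe set and array, made with MAS5 per the submitters' processing notes (version not given in the sources used here). Every array had the same mean, 210.1, with 2% trimmed from either end, so a change in total RNA would not appear. The 57 control probe sets were removed, log2 was taken without rescaling (floor 0.1, the lowest positive signal), and the 18625 probe sets at or above the 40th percentile of mean log2 signal were tested. limma (version 3.58.1, R 4.3.3) with an intensity trend compared NT3 with control, 2-sided. Benjamini-Hochberg adjustment was over all tested probe sets, at 0.05. The fit was also run on simulated data with independent noise for each value. Those data held no pairing and no array of lower RNA quality, so that run cannot speak to either. The stated SE and 95% intervals are limma's. Of the probe sets, 20826 had 1 gene symbol, 436 several and 9780 none, and the Entrez identifier of 20758 of the first was found in RefSeq (GRCr8).

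The genes and lists were chosen with earlier results of these data known. For a gene outside the 10, the probe set of highest mean signal was used. Igf2, Igf2r and Gnas were named in any case, and from each other list the genes with an unadjusted p under 0.05 or else the 2 with the lowest p. Relatives of the 10 genes and markers were named only beside a value of theirs, apart from Gdf9, Zp3, Amh and Foxl2, named as ovarian markers that passed the filter. Igf1r, Insr and Zfp57 were added for their link to Grb10 and the motif, after their values were seen. Detection calls were not used here. Same-numbered control and NT3 arrays deviated together from their group means over the tested probe sets. The correlations were 0.230, 0.247 and 0.222, against at most 0.029 for unequal numbers. Deviations within a group cancel out, so positive values for equal numbers force lower ones for unequal numbers. The numbers were taken to pair the samples, from the data and not from the labels. The p-values with the block rest on these same data. The alternatives were the replicate number as a block, quantile normalization, median centring, no filter, a stricter filter (60th percentile), adding 16 before log2, no trend, array weights, each array left out, both arrays numbered 2 left out, the block without control replicate 2, and the mean of a gene's probe sets. For the other lists, leaving out control replicate 2 was added after seeing the data.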

Additional observations from a re-analysis of the deposited data

How the results depend on the processing

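Over 17 alternative settings, 175 values of the 11 tested probe sets were computed, 158 kept their sign and none had an adjusted limma p under 0.05. The sign turned for Cdkn1c (-0.49 to 0.13 over single arrays left out), Dlk1 (0.066 with array weights, -0.26 to 0.18 over single arrays left out), the second Grb10 probe set (-0.013 with array weights, -0.048 with both arrays numbered 2 left out, with or without the replicate block, and -0.063 to 0.23 over single arrays left out) and Mest (0.010 with array weights, 0.11 with both arrays numbered 2 left out or with the replicate block and control replicate 2 left out, and -0.091 to 0.057 over single arrays left out). H19 and Ndn turned to -0.0017 and -0.023 with both arrays numbered 2 left out or with the replicate block and control replicate 2 left out. The cause was not tested. The number of probe sets at an unadjusted p under 0.05, 240 with all arrays, was 401 with the replicate block, 752 with no filter, 123 with a filter at the 60th percentile, 377 with no trend, 585 with array weights, 514 with both arrays numbered 2 left out, and 176 to 656 over single arrays left out. With the replicate block and control replicate 2 left out, a fit that rests on 2 pairs, it was 962, and 4 probe sets were called, 1 of Hnrnpa2b1 and 3 without a gene name. In every other fit 0 probe sets were called. The median of the other imprinted genes, 0.041, was -0.019 with the mean of a gene's probe sets and -0.0056 to 0.042 over single arrays left out. With all 6 arrays the replicate block changed no adjusted call. With 3 arrays against 3 the median tested probe set had a 95% interval of 1.32-fold to either side.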

Other observations

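Rasgrf1, Dlk2 and Peg10 lay below the signal filter and were picked after their values were seen. At such low signals no size of change is given. Rasgrf1, a paternally expressed exchange factor for Ras, had signals of 38.6, 55.4 and 46.8 in control and 5.6, 16.7 and 1.0 in NT3. All NT3 arrays were below all controls, as in 4.28% of all 31042 probe sets. Its other probe set had 2.7, 2.8 and 5.1 in control and 6.4, 3.2 and 5.4 in NT3, and so did not show the same direction.

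Dlk2, the relative of Dlk1, had 12.3, 11.9 and 52.4 in control and 8.0, 2.7 and 9.0 in NT3, and control replicate 3 alone set most of the difference in means. Peg10, a paternally expressed gene derived from a retrotransposon, had 2.8, 4.2 and 10.3 in control and 15.4, 10.4 and 15.6 in NT3. All NT3 arrays were above all controls, as in 2.88% of all 31042 probe sets. No adjusted limma p in the fit with no filter was under 0.05.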
